A study of Mus musculus with 16 samples.

Results

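The genes described here were 35 markers of cells of the vessels and coverings of the brain: 14 of endothelium, 8 of mural cells and 13 of meninges. They were chosen by symbol, as known markers of these cells, from the 55365 gene lines that carried the same symbol in both expression tables of the series. Neural stem cells (NSCs) were taken from the cortices of C57BL/6 mouse embryos at E15 to E16, pooled over embryos of both sexes, passaged, and grown as a monolayer in medium with serum, B27 and FGF2. Lentivirus carrying a scrambled shRNA (shRNA CON) or an shRNA against the long non-coding RNA RUS (shRNA RUS) was added the day after seeding, and on day 5 the medium was changed to Neurobasal with B27 to start differentiation. PolyA RNA was sequenced on day 5 and day 7 after seeding, with 4 libraries in each of the 4 groups and 16 in all. The labels name no transgene or deletion in the mice, and both arms received virus. Day and medium changed together and cannot be told apart. The labels do not say whether the libraries of a group came from separate cultures or embryo pools, so the p-values below measure the spread between these libraries.

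Brain endothelium lines the vessels, is held together by tight junctions and adherens junctions, and carries transporters that form the blood-brain barrier. It is covered by mural cells, a name for pericytes and smooth muscle cells, which endothelial PDGF-B recruits through the receptor Pdgfrb. The meninges are layers of fibroblasts around the brain that make collagens and other matrix. These cells lie in or against the embryonic cortex when it is dissected. In bulk RNA, fewer cells of a type and less RNA per cell cannot be told apart, and this holds for each result below.

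Levels are given as scaled TPM: the TPM values deposited by the authors, which are corrected for gene length, divided by 1 factor per library. Log2 fold changes were fitted with limma on log2(scaled TPM + 0.1), which understates the change of genes near 0. A gene was tested when its mean reached 0.1 TPM, and it is called higher or lower at an adjusted p under 0.05 over all genes tested. The target of the shRNA, Gm20754 (RUS), was itself low. On day 5 Gm20754 measured 0.236, 0.117, 0.185 and 0.167 scaled TPM in the shRNA CON libraries and 0.0592, 0, 0.139 and 0.345 in the shRNA RUS libraries. On day 7 it measured 0.653, 0.661, 0.238 and 0.506 with shRNA CON and 0.500, 0.348, 0 and 0.0364 with shRNA RUS. The groups overlapped on both days, and Gm20754 was not called on day 5 (log2 fold change -0.40 ± 0.44 (SE), limma adjusted p = 0.519) or day 7 (-1.28 ± 0.61, limma adjusted p = 0.114). On day 5 shRNA RUS replicate 4 was above every shRNA CON library. The target's TPM thus did not separate the groups. The study also measured RUS by RT-qPCR, which was not analysed here, and the groups are named as the labels name them.

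The 35 genes did not share 1 level. Averaged over the libraries of either day, 15 of them reached 1 scaled TPM, 10 more were tested but stayed under it, and 10 were too low to test. The low group held genes that define these cell types. Of the endothelial genes, Cldn5 (the main tight junction claudin) ranged from 0 to 0.0589 scaled TPM and was at 0 in 10 of 16 libraries. Cdh5 (VE-cadherin, of the adherens junctions) ranged from 0 to 0.147. Tie1 (an orphan receptor tyrosine kinase) reached at most 0.0373 and Emcn (a surface sialomucin) at most 0.121. Pecam1, the adhesion molecule CD31, ranged from 0.113 to 0.376. Of the mural genes, Abcc9 (the sulfonylurea receptor SUR2 of pericytes) and Vtn (vitronectin) did not exceed 0.168 in any library. Of the meningeal genes, Lum (the proteoglycan lumican), Tbx18 (a transcription factor) and Slc6a13 (a GABA transporter) did not exceed 0.151, and Slc22a6 (an organic anion transporter) was listed at 0 in all 16 libraries. The authors' base means, which are averages of size-factor-normalized counts, were 0.778 for Cldn5 and 0.487 for Cdh5 on day 5 and 0 and 0.386 on day 7, so these genes rested on about 1 read or less per library.

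Other members of the same lists were among the more abundant transcripts of the cultures. The lipid transporter Mfsd2a averaged 112 scaled TPM in day 5 shRNA CON libraries, the organic anion transporter Slco1a4 averaged 41.4, and the smooth muscle genes Acta2, Tagln and Myl9 averaged 327, 372 and 196. Among the meningeal genes Islr averaged 240, Ogn 103, Fn1 70.5 and Ptgds 51.2 in those libraries. Between these 9 and the lowest genes stood the receptors Pdgfrb and Kdr at 14.3 and 5.48 and the transcription factor Foxc1 at 1.13. Defining genes of the same cell type therefore differed widely in level, with Kdr detected in every library and Cldn5 at 0 in most. The genes are described below by the list they came from, and the cells that made the transcripts were not identified here.

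**Figure D1:**
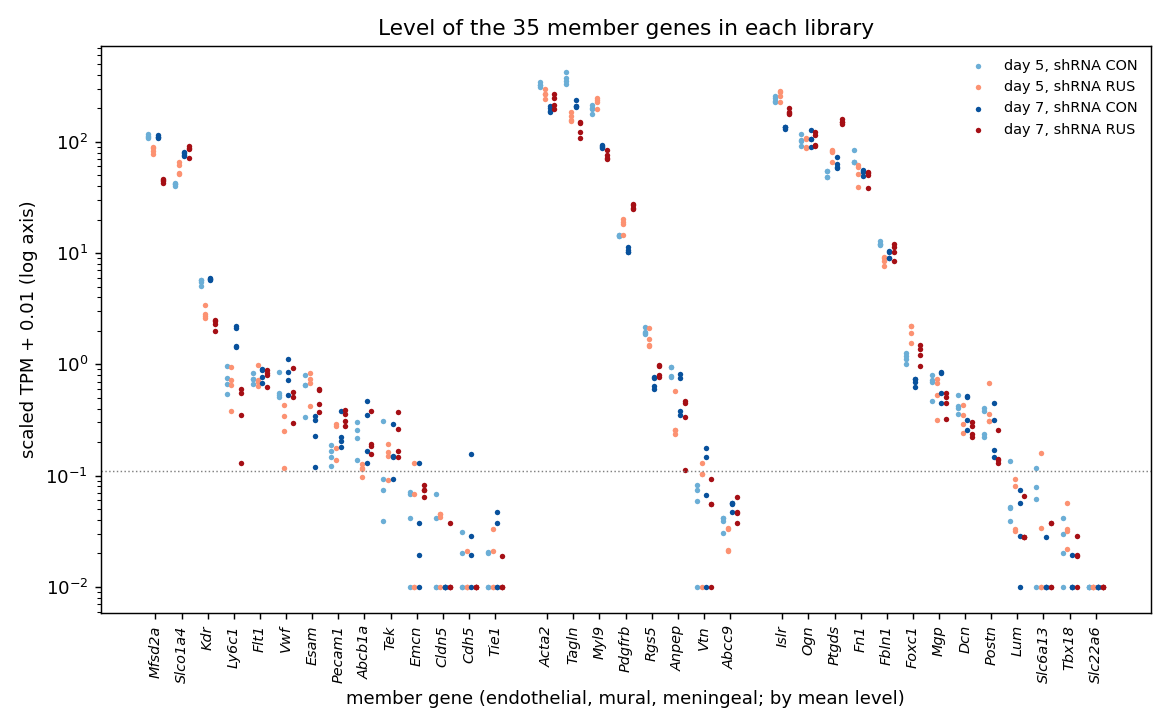
Scaled TPM plus 0.01 of each of the 35 genes in the 16 libraries, on a log axis, with 1 point per library and the colours for the 4 groups. The dotted line marks the 0.1 TPM used as the filter, and the genes fall from Tagln at up to 426 scaled TPM to Slc22a6 at 0.

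Markers of other cells gave the setting. Summed over 8 genes each, the NSC list (led by Vim, Fabp7 and Sox2) ranged over the 16 libraries from 6167 to 20529 scaled TPM, the astrocyte list (led by Gfap, Aldoc and Slc1a3) from 3615 to 8140, and the neuron list (led by Map2, Tubb3 and Stmn2) from 597 to 854. Most of the NSC sum was Vim, which averaged 9185 of 13243 scaled TPM in day 5 shRNA CON libraries. In day 5 shRNA RUS libraries Vim averaged 13496 of 19077, so the sum does not stand for the other NSC genes. The 10 microglial genes (led by C1qa, C1qc and C1qb) summed to between 145 and 411, and 6 choroid plexus genes, led by Otx2, Folr1 and Kcnj13, to between 19.3 and 40.2. The 35 genes together summed to between 1033 and 1654.

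Knockdown on day 5 called 4 of the 25 members tested higher and 8 lower. Over all 22581 genes tested, 14.8% were called higher and 17.9% lower. On day 7, 6 of 25 members were called higher and 5 lower, against 23.4% and 25.8% of 24606 genes. These shares over all genes are also the background for the knockdown counts of the other lists below. The members' median log2 fold change was -0.12 on day 5 and -0.03 on day 7, beside -0.06 and -0.03 for all genes. The shares of members called were thus near the background, except that 8 of 25 were lower on day 5 (6 to 7 with any 1 library left out), and the direction differed from gene to gene. Without the library factors, the median of all genes on day 5 moved to -0.21, and 22.7% of the calls rather than 45.4% were upward, so day 5 changes are given relative to the scaled median.

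**Figure D2:**
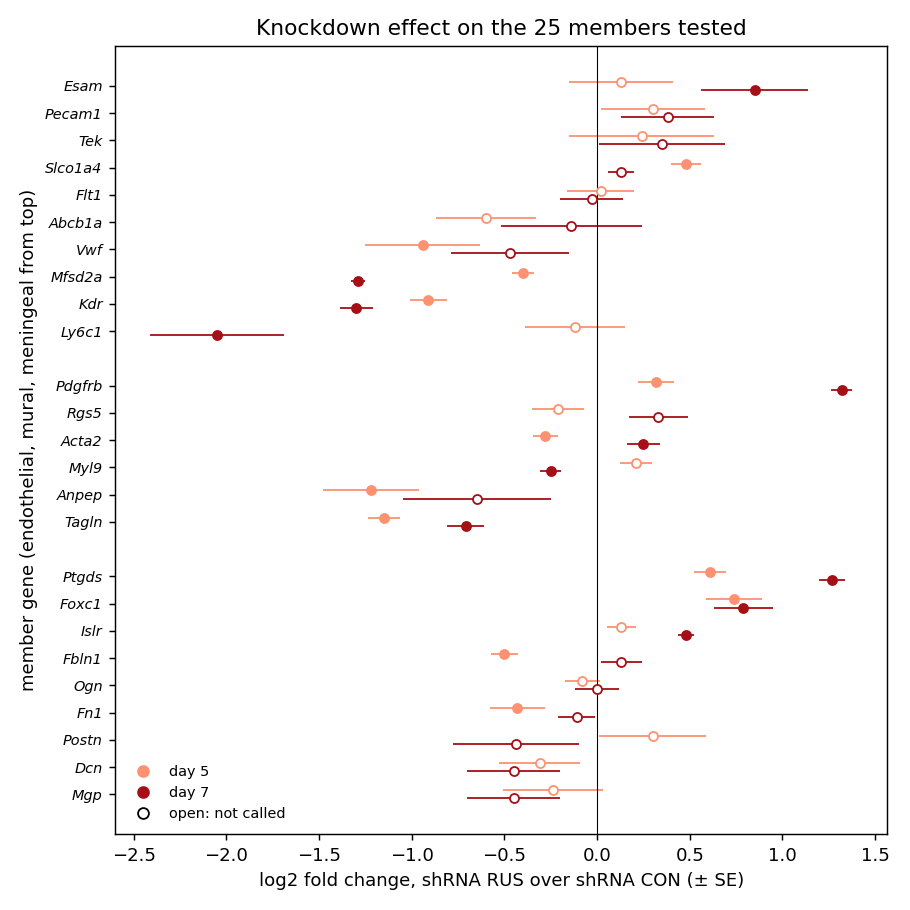
Log2 fold change of shRNA RUS over shRNA CON with its standard error for the 25 genes tested, on day 5 and day 7, from limma. Filled points were called at an adjusted p under 0.05 and open points were not; they span Ly6c1 at -2.05 to Pdgfrb at 1.32, both on day 7.

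Of the endothelial members above 1 scaled TPM, Kdr and Mfsd2a fell with shRNA RUS on both days, Ly6c1 fell on day 7 and Slco1a4 rose on day 5. Kdr (chr5:75932827-75978458, GRCm38, minus strand) encodes VEGFR2, the main receptor for VEGF-A on endothelium. On day 5 Kdr measured 5.69, 5.50, 5.71 and 5.03 scaled TPM in the shRNA CON libraries and 2.72, 2.81, 2.60 and 3.39 with shRNA RUS. The day 7 libraries measured 5.78, 5.94, 5.74 and 5.87 against 2.45, 2.27, 2.50 and 1.97. The groups did not overlap on either day. Kdr was 1.88-fold lower on day 5 (log2 -0.91 ± 0.10 (SE), limma adjusted p = 2.31e-04) and 2.46-fold lower on day 7 (-1.30 ± 0.089, limma adjusted p = 2.93e-06). The other VEGF receptor of the list, Flt1 (VEGFR1), ranged from 0.611 to 0.981 scaled TPM over the 16 libraries with groups that overlapped, and was not called on either day.

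Mfsd2a (chr4:122946850-122961188, minus strand) carries lysophosphatidylcholine with omega-3 fatty acids across the blood-brain barrier. On day 5 Mfsd2a stood at 110, 107, 113 and 117 scaled TPM with shRNA CON and at 88.6, 89.9, 83.1 and 77.5 with shRNA RUS. On day 7 the libraries stood at 115, 109, 110 and 110 against 45.2, 44.3, 46.6 and 43.0. Each shRNA RUS library lay below each shRNA CON library of its day. The fall was 1.32-fold on day 5 (log2 -0.40 ± 0.060, limma adjusted p = 0.00110) and 2.45-fold on day 7 (-1.29 ± 0.037, limma adjusted p = 4.60e-08).

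Slco1a4 (chr6:141805440-141856199, minus strand) encodes Oatp1a4, an organic anion transporter of the barrier. Its 4 libraries with shRNA CON on day 5 gave 41.9, 42.3, 39.6 and 41.9 scaled TPM, and those with shRNA RUS gave 62.3, 51.6, 52.4 and 65.8. On day 7 they gave 74.7, 80.2, 76.3 and 78.7 against 87.0, 91.4, 85.9 and 72.0. Slco1a4 rose 1.39-fold on day 5 without overlap (log2 0.48 ± 0.083, limma adjusted p = 0.00211). On day 7 the groups overlapped through shRNA RUS replicate 4 and the gene was not called (0.13 ± 0.069, limma adjusted p = 0.161), whereas without that library the adjusted p was 0.00310 at a log2 fold change of 0.20. Slco1a4 belongs to a family of close copies, among which RSEM divides shared reads.

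Ly6c1 (chr15:75044018-75048830, minus strand) is a GPI-anchored surface protein of brain endothelium with a near copy, Ly6c2, that monocytes express. Its day 5 values of 0.746, 0.531, 0.649 and 0.949 scaled TPM with shRNA CON and 0.935, 0.374, 0.706 and 0.647 with shRNA RUS overlapped. On day 7 Ly6c1 measured 2.20, 1.45, 2.09 and 1.43 with shRNA CON and 0.584, 0.119, 0.546 and 0.337 with shRNA RUS, without overlap. It was 4.13-fold lower on day 7 (log2 -2.05 ± 0.36, limma adjusted p = 0.00112, and -1.04 with a pseudocount of 1) and not called on day 5 (-0.12 ± 0.27, limma adjusted p = 0.761). Few reads lay behind these values: the authors' base mean for Ly6c1 was 8.07 for the libraries of day 5 and 13.7 for those of day 7.

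Of the 6 endothelial members tested below 1 scaled TPM, Pecam1, Flt1, Tek (the angiopoietin receptor TIE2) and Abcb1a (the drug efflux pump P-glycoprotein) were called in neither knockdown comparison. Vwf (von Willebrand factor) fell from 0.602 ± 0.159 (SD, n = 4) to 0.276 ± 0.133 on day 5 (log2 -0.94 ± 0.31, limma adjusted p = 0.0441). That call was lost without any 1 of the 4 shRNA CON libraries or shRNA RUS replicates 1, 3 or 4 (adjusted p 0.0580 to 0.115) and under 4 other settings. The log2 fold change of Vwf ranged from -1.21 to -0.31 over 16 alternatives. Esam (an endothelial adhesion molecule) rose on day 7 from 0.241 ± 0.101 to 0.488 ± 0.108 (log2 0.85 ± 0.29, limma adjusted p = 0.0344). The Esam call was lost without shRNA CON replicate 2 or 4 or shRNA RUS replicate 1, 2 or 4 (adjusted p 0.0562 to 0.0858) and without the filter (adjusted p = 0.0582). Its log2 fold change ranged from 0.28 to 1.09 over 16 alternatives.

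**Figure D3:**
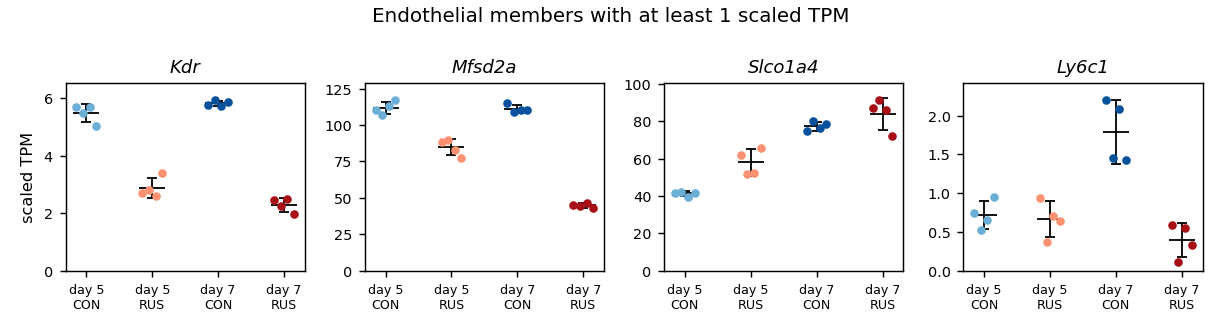
Scaled TPM of Kdr, Mfsd2a, Slco1a4 and Ly6c1 in each library (points), with the mean and SD of each group of 4. With shRNA RUS, Kdr and Mfsd2a lie below shRNA CON on both days, and Ly6c1 on day 7.

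Of 15 other endothelial markers, 12 were tested on day 7, where 7 fell with shRNA RUS and 5 were not called, and 10 on day 5, where 2 rose and 1 fell. Their median on day 7 was -0.70, beside -0.03 for all genes. Several of these markers, named here after their values were seen, were low. Sox17, Foxq1 and Erg averaged 0.00133, 0.00583 and 0.0347 scaled TPM over the 16 libraries and were not tested. Robo4 and Sox18, at 0.143 and 0.214, were not called on day 7, and Icam2, at 0.0914, fell (log2 -1.24). Cd34, a sialomucin also found on progenitors, rose on day 5 (log2 0.68, limma adjusted p = 9.34e-05) and fell on day 7 (-1.41, limma adjusted p = 5.62e-05). Also on day 7, Egfl7 (a secreted vessel protein, log2 -1.25), Ecscr (a chemotaxis receptor, -1.17), Plvap (a protein of fenestral diaphragms, -1.07) and Itm2a (a membrane protein, -0.81) fell. Microglial and oligodendrocyte-lineage genes moved with these falls: all 10 microglial genes were called lower on day 7, and 3 of 10 on day 5. Csf1r (the CSF-1 receptor, log2 -1.29), Tmem119 (-1.50) and C1qa (-1.04) fell on day 7, and the list's sum was 389 ± 17.0 scaled TPM in shRNA CON and 197 ± 17.4 in shRNA RUS libraries, after 170 ± 8.06 and 174 ± 24.6 on day 5. Of 7 oligodendrocyte-lineage genes 6 were called lower on day 7, including Gpr17 (-2.64), Mbp (myelin basic protein, -2.35) and Sox10 (-1.49), with sums of 395 ± 17.1 and 250 ± 13.4. Of the 7, 3 fell on day 5, Sox10 (-1.13), Pdgfra (-1.14) and Olig2 (-0.62), with sums of 268 ± 38.1 and 224 ± 41.1. Of 8 NSC genes 2 fell and 4 rose on day 5, and 3 fell and 3 rose on day 7. Nes (nestin, log2 -0.87 and -1.19) and Hes5 (a Notch target, -0.67 and -0.83) fell on both days and Prom1 (prominin, limma adjusted p = 6.65e-07) on day 7. Vim (log2 0.55 and 0.17), Pax6 (0.25 and 0.20) and Sox9 (0.21 and 0.58) rose on both days, and Fabp7 rose on day 5 (0.52). Pax6 and Sox9 are named here after their values were seen. Sox2 was called on neither day. The NSC sum, most of it Vim, was 13243 ± 1040 and 19077 ± 1536 scaled TPM on day 5 with shRNA CON and shRNA RUS. On day 7 it was 6339 ± 134 and 6811 ± 279. The part of these cell types in the falls of Kdr, Mfsd2a and Ly6c1 was not tested.

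The mural members split in direction. Pdgfrb rose, Tagln fell on both days, and Acta2 and Myl9 were called in opposite directions on day 7. Pdgfrb (chr18:61045150-61085061, plus strand), the PDGF-B receptor that pericytes carry, measured 14.4, 14.3, 14.1 and 14.4 scaled TPM with shRNA CON on day 5 and 14.6, 18.4, 18.9 and 20.3 with shRNA RUS. On day 7 Pdgfrb measured 10.6, 11.4, 10.1 and 10.3 against 25.0, 27.6, 25.3 and 27.1. The groups lay apart on both days, narrowly on day 5 and widely on day 7. The rise on day 7 was 2.49-fold (log2 1.32 ± 0.057, limma adjusted p = 2.44e-07), and all 17 alternatives kept that call. The day 5 rise of 1.25-fold (0.32 ± 0.097, limma adjusted p = 0.0303) was lost without any 1 library other than shRNA RUS replicate 1 (adjusted p 0.0538 to 0.0762), and on TPM as deposited (log2 0.17, adjusted p = 0.306).

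Rgs5 (chr1:169655501-169695813, plus strand), a regulator of G-protein signalling in pericytes, gave 1.89, 1.85, 2.15 and 1.94 scaled TPM against 1.68, 1.45, 1.49 and 2.12 on day 5. On day 7 it gave 0.634, 0.588, 0.761 and 0.740 against 0.963, 0.752, 0.791 and 0.983. Both pairs of groups overlapped, and Rgs5 was not called on day 5 (log2 -0.21 ± 0.14) or day 7 (0.33 ± 0.16, limma adjusted p = 0.119), although quantile normalization and a prior without trend called it on day 7 (adjusted p 0.0438 and 0.0473). Anpep (aminopeptidase N), the mural member tested below 1 scaled TPM, fell on day 5 from 0.851 ± 0.0944 (SD, n = 4) to 0.322 ± 0.164 (log2 -1.22 ± 0.26, limma adjusted p = 0.00602, and -0.47 with a pseudocount of 1).

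Acta2, Tagln and Myl9 make the contractile apparatus of smooth muscle and are textbook targets of serum response factor (SRF), which binds a sequence called the CArG box. The 250 bases before the RefSeq start (GRCm38.p6) were searched for this motif, and stretches of Acta2 and Myl9 are shown because each has 2 matches to it or to a relaxed form. Tagln had no entry in the promoter table. Capitals mark a CArG box or the relaxed form, in which 1 of the 6 middle bases is not A or T. The bases are written 5′ to 3′ on the gene's strand, for Myl9 up to its annotated first exon and for Acta2 as 30 bases around each match.
Myl9, chr2:156775214-156775419, plus strand: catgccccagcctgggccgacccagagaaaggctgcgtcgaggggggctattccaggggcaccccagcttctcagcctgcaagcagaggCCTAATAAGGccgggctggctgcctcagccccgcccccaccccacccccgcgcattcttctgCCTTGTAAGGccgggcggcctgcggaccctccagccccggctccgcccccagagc
Acta2, chr19:34255438-34255467, minus strand: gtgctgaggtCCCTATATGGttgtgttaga
Acta2, chr19:34255388-34255417, minus strand: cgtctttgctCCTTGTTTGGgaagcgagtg

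In Myl9 the first match has the full motif and begins 161 bases before the RefSeq start, and the relaxed one begins 99 bases before it. Both matches in Acta2 were of the relaxed form and began 84 and 34 bases before the RefSeq start, inside the first exon as GENCODE draws it. The motif was read on both strands, on which it has the same form. Of the 32851 promoters listed there, 1.47% held a full CArG box and 8.59% a full or relaxed one in a window of this length. The 25 members with an entry had 30 promoters in that table, and 5 members, counted by gene and not by promoter, held a full or relaxed match: Acta2, Myl9, Kdr, Slco1a4 and Tbx18. These matches describe letters in a window, and no binding was measured.

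Acta2 (chr19:34241090-34255590, minus strand) is smooth muscle α-actin, whose reads RSEM shares with other actin genes. On day 5 Acta2 measured 313, 347, 326 and 322 scaled TPM with shRNA CON and 299, 271, 268 and 243 with shRNA RUS. The day 7 libraries measured 211, 189, 185 and 200 against 249, 267, 198 and 212. Acta2 fell 1.21-fold on day 5 without overlap (log2 -0.28 ± 0.068, limma adjusted p = 0.0134), a call lost with the replicate number as a block (adjusted p = 0.0554). On day 7 the groups overlapped and it was called 1.19-fold higher (0.25 ± 0.090, limma adjusted p = 0.0473). The day 7 call was lost without shRNA CON replicate 2, 3 or 4 or shRNA RUS replicate 1 or 2 (adjusted p 0.0758 to 0.114), and under 3 other settings (adjusted p 0.0725 to 0.0919).

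Tagln (chr9:45929619-45936058, minus strand), the actin-binding protein SM22α, fell on both days. Its day 5 values were 332, 426, 355 and 373 scaled TPM with shRNA CON and 184, 158, 152 and 172 with shRNA RUS. The day 7 values were 235, 206, 209 and 210 against 146, 150, 122 and 108. No shRNA RUS library reached a shRNA CON library of the same day. The fall was 2.22-fold on day 5 (log2 -1.15 ± 0.088, limma adjusted p = 3.46e-05) and 1.63-fold on day 7 (-0.71 ± 0.10, limma adjusted p = 2.92e-04). Exons of Tagln overlap those of Pcsk7 on the opposite strand, and strand use in the counting is not given in the sources used here. Pcsk7 averaged 14.6 scaled TPM in both day 5 groups and 16.4 and 20.2 in the day 7 groups.

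Myl9 (chr2:156775420-156781658, plus strand) is the regulatory myosin light chain of smooth muscle. On day 5 Myl9 stood at 176, 200, 196 and 213 scaled TPM with shRNA CON and at 245, 226, 238 and 197 with shRNA RUS, and the groups overlapped through shRNA RUS replicate 4. On day 7 it stood at 94.3, 89.4, 87.0 and 91.4 against 75.8, 83.9, 71.5 and 70.5, without overlap. It was not called on day 5 (log2 0.21 ± 0.084, limma adjusted p = 0.0900, and 0.0144 without shRNA RUS replicate 4) and was 1.19-fold lower on day 7 (-0.25 ± 0.056, limma adjusted p = 0.00456).

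**Figure D4:**
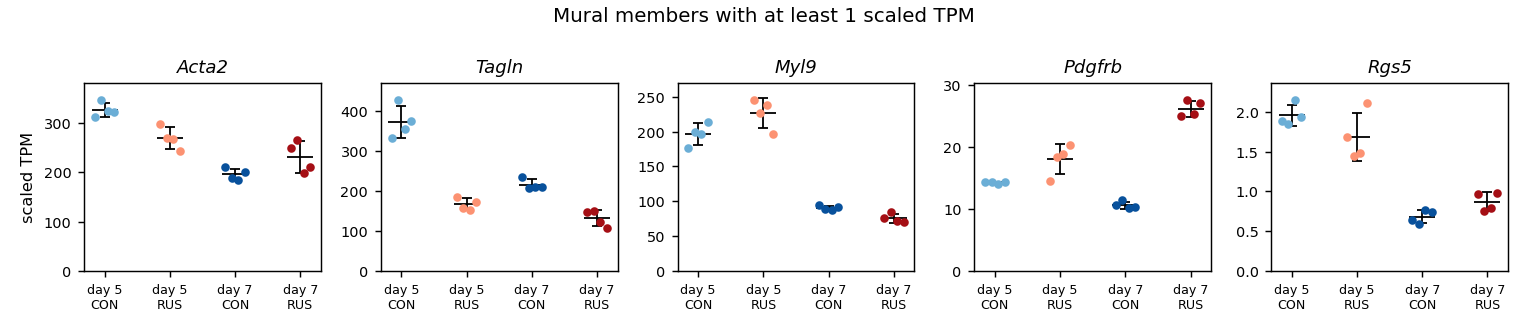
Scaled TPM of Pdgfrb, Rgs5, Acta2, Tagln and Myl9 in each library (points), with the mean and SD of each group of 4. Pdgfrb is highest in the day 7 shRNA RUS libraries at 25.0 to 27.6, and Tagln is highest in day 5 shRNA CON libraries.

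More of the other mural markers fell than rose, while the actin genes were called in both directions. Of 13 other mural markers 11 were tested in each knockdown comparison: 5 fell and 6 were not called on day 5, and 5 fell and 1 rose on day 7. The gene that rose, named here after its values were seen, was Lmod1, from 3.91 to 6.15 scaled TPM (log2 0.65, limma adjusted p = 1.69e-04). Low markers, named likewise, were Myh11, Des, Kcnj8 and Higd1b, at 0.264, 0.118, 0.118 and 0.0319 scaled TPM over the 16 libraries. Cnn1 (calponin, of smooth muscle) fell 1.52 on the log2 scale on day 5 (limma adjusted p = 1.88e-05) and its log2 fold change on day 7 was -1.05 (limma adjusted p = 3.97e-05). Cox4i2, a respiratory chain subunit of pericytes, fell on both days (log2 -0.84 and -2.18), and Ndufa4l2, of the same kind, fell on day 7 (-1.28). Notch3 (a Notch receptor of mural cells) and Mcam (CD146) fell on day 5 (log2 -0.44 and -0.32). Of 18 genes of SRF and the actin machinery 16 were tested: 1 rose and 7 fell on day 5, and 7 rose and 5 fell on day 7. Srf itself was called on neither day (log2 0.17, limma adjusted p = 0.241, and 0.06, limma adjusted p = 0.499). Mrtfa and Mrtfb were not called on day 5 and rose on day 7 (log2 0.33 and 0.70). Srf, Mrtfa and Mrtfb are named here after their values were seen. Tagln2, a relative of Tagln, fell on both days (log2 -0.79 and -1.14), as did Tpm2 (tropomyosin, -0.58 and -0.94). Myl6, the essential myosin light chain and the most abundant of the list at 1162 scaled TPM in day 5 shRNA CON libraries, rose on both (0.66 and 0.18). Myh9 (non-muscle myosin heavy chain, log2 0.85) and Flna (filamin, 0.35) rose on day 7, and Ccn1 (a secreted matrix protein) fell (-0.54).

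Ptgds and Foxc1 of the meningeal list rose with shRNA RUS on both days, Islr rose on day 7, and Fbln1 fell on day 5. Ptgds (chr2:25466709-25470046, minus strand) makes prostaglandin D2 and is secreted by meninges and choroid plexus. On day 5 Ptgds gave 47.9, 54.2, 48.4 and 54.2 scaled TPM with shRNA CON and 85.0, 80.2, 82.6 and 66.3 with shRNA RUS. The day 7 libraries gave 72.6, 63.5, 59.8 and 58.2 against 151, 143, 160 and 151. The groups lay apart on each day. The rise was 1.53-fold on day 5 (log2 0.61 ± 0.087, limma adjusted p = 7.40e-04) and 2.41-fold on day 7 (1.27 ± 0.070, limma adjusted p = 7.96e-07). The choroid plexus list, which could share Ptgds with the meninges, summed to 27.0 ± 1.30 and 21.2 ± 2.16 scaled TPM on day 5 and to 39.1 ± 0.970 and 25.6 ± 0.465 on day 7 with shRNA CON and shRNA RUS. Of the 5 choroid plexus genes tested, 1 rose and 2 fell on day 5 and 2 fell on day 7; the gene that rose, named here after its values were seen, was Ttr (transthyretin, log2 0.72, limma adjusted p = 0.0496). Beside these rises the astrocyte list summed to 6277 ± 110 and 8021 ± 105 scaled TPM on day 5 with shRNA CON and shRNA RUS. On day 7 it summed to 3676 ± 73.8 and 4458 ± 99.8. Of its 8 genes 3 rose, 1 fell and 4 were not called on day 5, and 4 rose and 1 fell on day 7. The list's median log2 fold change was 0.05 on day 5 and 0.18 on day 7, beside -0.06 and -0.03 for all genes. Gfap (log2 0.60 and 0.35) and Aldoc (0.57 and 0.61) rose on both days. On day 5 Gfap went from 1849 to 2792 and Aldoc from 1328 to 1972 scaled TPM, so abundant genes set much of the sum's rise. The astrocyte genes that fell were the glutamate transporters Slc1a2 on day 5 (-0.65) and Slc1a3 on day 7 (-0.15). The part of either cell type in the values of Ptgds, Foxc1 and Islr was not tested.

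Foxc1 (chr13:31806633-31812476, plus strand) is a forkhead transcription factor that meningeal development requires. Its day 5 levels were 1.00, 1.10, 1.25 and 1.18 scaled TPM with shRNA CON and 1.89, 2.22, 2.22 and 1.54 with shRNA RUS. The day 7 levels were 0.616, 0.679, 0.733 and 0.721 against 0.963, 1.48, 1.35 and 1.21. Both rises were free of overlap, at 1.66-fold on day 5 (log2 0.74 ± 0.15, limma adjusted p = 0.00548) and 1.72-fold on day 7 (0.79 ± 0.16, limma adjusted p = 0.00285). With a pseudocount of 1 the log2 fold changes of Foxc1 were 0.46 and 0.44, both called.

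Islr (chr9:58156268-58204306, minus strand), a secreted protein with leucine-rich repeats also known as meflin, was the most abundant meningeal member. Its libraries gave 226, 234, 245 and 256 scaled TPM with shRNA CON and 258, 286, 280 and 229 with shRNA RUS on day 5. On day 7 they gave 137, 137, 135 and 129 against 180, 178, 199 and 184. Islr was not called on day 5, where the groups overlapped (log2 0.13 ± 0.078, limma adjusted p = 0.246, and 0.0345 without shRNA RUS replicate 4), and the sign turned on TPM as deposited and with quantile normalization. On day 7 it was 1.39-fold higher (0.48 ± 0.044, limma adjusted p = 1.75e-05). An exon of Islr overlaps 1 of the neural gene Islr2 on the same strand, and Islr2 averaged 38.1 and 28.9 scaled TPM on day 5 and 23.8 and 28.8 on day 7 with shRNA CON and shRNA RUS.

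Fbln1 and Fn1 encode fibulin and fibronectin, which are secreted into the matrix. Fbln1 (chr15:85205949-85286535, plus strand) measured 12.8, 12.1, 11.8 and 12 scaled TPM against 7.70, 8.97, 9.15 and 8.46 on day 5, and 10.1, 10.4, 8.99 and 8.99 against 8.49, 10.3, 11.4 and 12 on day 7. It fell 1.42-fold on day 5 without overlap (log2 -0.50 ± 0.074, limma adjusted p = 9.27e-04). On day 7 the groups overlapped and Fbln1 was not called (0.13 ± 0.11, limma adjusted p = 0.350, and 0.0424 without shRNA RUS replicate 1). Fn1 (chr1:71585520-71653200, minus strand) measured 65.8, 84.5, 65.6 and 66.0 against 39.1, 51.7, 58.7 and 61.7 on day 5, and 54.2, 53.1, 55.6 and 49.5 against 38.7, 50.7, 53.6 and 52.7 on day 7. It was called lower on day 5 by a narrow margin (log2 -0.43 ± 0.15, limma adjusted p = 0.0495), and the call was lost without any 1 library other than shRNA RUS replicate 4 (adjusted p 0.0545 to 0.122). It was also lost under 4 other settings (adjusted p 0.0517 to 0.0871).

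Ogn (chr13:49608046-49624501, plus strand), the small proteoglycan osteoglycin, was called in neither knockdown comparison. On day 5 Ogn stood at 101, 118, 104 and 91.1 scaled TPM with shRNA CON and at 107, 87.9, 89.2 and 106 with shRNA RUS. The day 7 libraries stood at 89.1, 105, 106 and 127 against 116, 123, 94.1 and 91.8. The groups overlapped on both days, with log2 fold changes of -0.08 ± 0.095 and 0.00 ± 0.12. The gene lies within Cenpp, a kinetochore gene on the opposite strand, with no exon in common. The 3 meningeal members tested below 1 scaled TPM, Dcn (decorin), Postn (periostin) and Mgp (matrix Gla protein), were called in neither knockdown comparison.

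**Figure D5:**
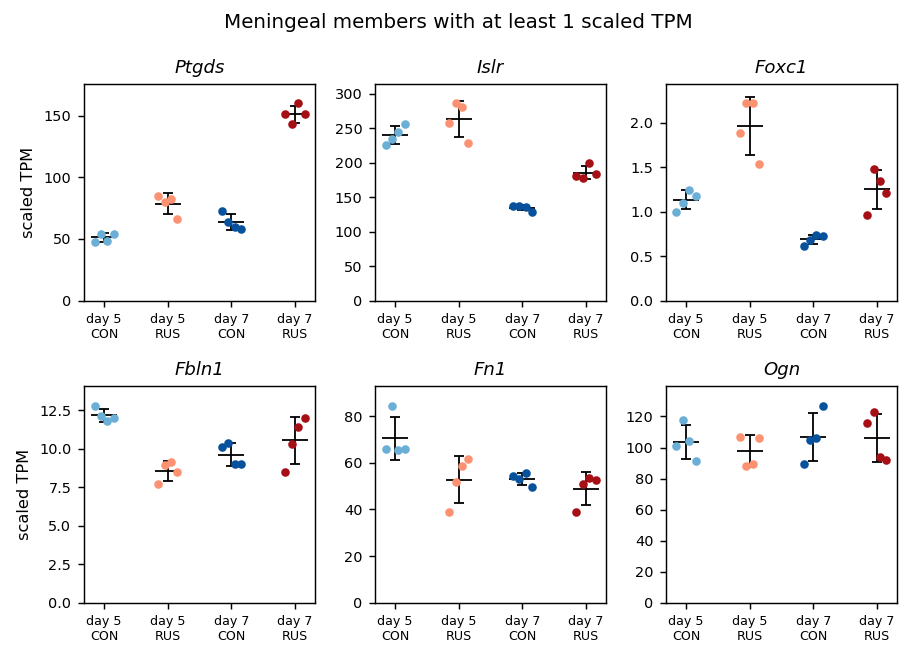
Scaled TPM of Ptgds, Islr, Foxc1, Fbln1, Fn1 and Ogn in each library (points), with the mean and SD of each group of 4. Ptgds and Foxc1 lie higher with shRNA RUS on both days and Ogn overlaps throughout.

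Of 23 other meningeal and fibroblast markers 19 were tested. On day 5, 1 fell and 18 were not called, with a median of -0.04. On day 7, 6 rose and 4 fell, with a median of 0.05. Thbs2 (the matrix protein thrombospondin-2, log2 1.43), Col1a1 (collagen I, 1.23) and Prrx1 (a mesenchymal homeobox factor, 0.65) rose on day 7. Bgn (the proteoglycan biglycan, log2 -1.04) and Pcolce (an enhancer of collagen processing, -0.56) fell on day 7. Col1a1 was low, at 0.712 scaled TPM in day 7 shRNA CON and 1.71 in shRNA RUS libraries.

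Between the days, 5 of the 6 mural members tested fell in control cells, whereas of the 9 meningeal members tested 4 fell, 1 rose and 4 were not called. With shRNA CON, 3 of 25 members were called higher and 10 lower on day 7 than on day 5, against 26.9% and 21.6% of 23789 genes. With shRNA RUS, 5 were higher and 9 lower, against 35.0% and 25.8%. The members' medians were -0.12 and -0.23, beside 0.07 and 0.13 for all genes. On TPM as deposited the members' medians were 0.00 and 0.10, beside 0.20 and 0.41 for all genes, and the split of members was 4 higher and 8 lower with shRNA CON and 8 higher and 5 lower with shRNA RUS. The share of upward calls over all genes moved with it, from 55.5% to 71.4% and from 57.5% to 76.9%.

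All 5 mural members above 1 scaled TPM fell in control cells from day 5 to day 7. Rgs5 fell most, 2.64-fold (log2 -1.40 ± 0.14, limma adjusted p = 6.50e-07, and -0.82 with a pseudocount of 1), then Myl9 2.16-fold (-1.11 ± 0.073, limma adjusted p = 5.99e-09), Tagln 1.72-fold, Acta2 1.67-fold and Pdgfrb 1.35-fold. These falls kept their direction and call under all 25 alternatives. Astrocyte genes fell with shRNA CON as well, 7 of 8 being called lower, with sums of 6277 scaled TPM on day 5 and 3676 on day 7. Of 8 NSC genes 3 fell and 2 rose, and of 8 neuron genes 2 fell and 5 rose. The part of these cells in the mural falls was not tested. With shRNA RUS, Myl9 fell further (log2 -1.58 ± 0.073, limma adjusted p = 9.45e-11) and Rgs5 1.83-fold, whereas Pdgfrb rose 1.46-fold (0.55 ± 0.080, limma adjusted p = 2.11e-05). Tagln (log2 -0.35) and Acta2 (-0.23) were called lower as well, but neither was called lower on TPM as deposited or with quantile normalization. Acta2 turned to 0.10 on TPM as deposited, where it was not called, and to 0.22 with quantile normalization, where it was called higher (limma adjusted p = 0.0202). The Acta2 call was also lost without day 5 shRNA RUS replicate 1 or 2 or day 7 shRNA RUS replicate 3 or 4 (adjusted p 0.0521 to 0.112). Most other mural markers fell: 9 of 12 tested were lower and 1 higher with shRNA CON, and 8 were lower and 2 higher with shRNA RUS, Cox4i2 (log2 -1.99 and -3.30), Cnn1 (-1.69 and -1.23) and Mcam (-1.49 and -1.40) among those that fell.

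The endothelial members moved apart with time. Of 11 other endothelial markers tested, 3 rose and 3 fell with shRNA CON. With shRNA RUS 1 rose and 5 fell, Cd34 most (log2 -3.69). Slco1a4 rose 1.87-fold with shRNA CON (log2 0.90 ± 0.080, limma adjusted p = 1.77e-07) and 1.45-fold with shRNA RUS (0.54 ± 0.080, limma adjusted p = 2.51e-05). Ly6c1 rose 2.31-fold with shRNA CON (1.21 ± 0.33, limma adjusted p = 0.00631) and was not called with shRNA RUS (-0.70 ± 0.33, limma adjusted p = 0.0777), although 5 alternatives called it lower there, among them leaving out day 5 shRNA RUS replicate 2 or day 7 shRNA RUS replicate 1 or 3 (adjusted p 0.0299 to 0.0442). Mfsd2a was not called in control cells (-0.01 ± 0.047), but its change was 0.14 on TPM as deposited and 0.13 with quantile normalization, both called. With shRNA RUS it fell 1.89-fold (-0.92 ± 0.047, limma adjusted p = 2.84e-10). Kdr was not called in control cells (0.09 ± 0.093) and fell 1.24-fold with shRNA RUS (-0.31 ± 0.093, limma adjusted p = 0.00841), a fall that was 0.00 on TPM as deposited. Esam fell in control cells (-1.04 ± 0.28, limma adjusted p = 0.00628), with groups that overlapped. Vwf rose with shRNA RUS (0.82 ± 0.32, limma adjusted p = 0.0388), a call lost without day 5 shRNA RUS replicate 3 or 4 or day 7 shRNA RUS replicate 2, 3 or 4 (adjusted p 0.0582 to 0.135) and under 4 other settings. With shRNA CON 8 of 10 microglial genes were called higher and 0 lower, with sums of 170 scaled TPM on day 5 and 389 on day 7. Of 7 oligodendrocyte-lineage genes 6 were called higher and 0 lower. The part of these cells in the rises of Slco1a4 and Ly6c1 was not tested.

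Of the meningeal members, Islr fell 1.79-fold in control cells (log2 -0.84 ± 0.063, limma adjusted p = 2.70e-08) and 1.42-fold with shRNA RUS (-0.50 ± 0.063, limma adjusted p = 4.11e-06, but -0.05 and not called with quantile normalization). Foxc1 fell 1.56-fold (-0.64 ± 0.15, limma adjusted p = 0.00187) and 1.53-fold (-0.62 ± 0.15, limma adjusted p = 0.00190, and 0.0702 on TPM as deposited). Ptgds rose 1.24-fold (0.31 ± 0.082, limma adjusted p = 0.00515) and 1.94-fold (0.95 ± 0.082, limma adjusted p = 6.17e-08). Fbln1 fell in control cells (-0.34 ± 0.094, limma adjusted p = 0.00696, and 0.146 on TPM as deposited) and was called higher with shRNA RUS (0.29 ± 0.094, limma adjusted p = 0.0152). The latter call was lost without day 5 shRNA RUS replicate 1 or day 7 shRNA RUS replicate 4 (adjusted p 0.0552 and 0.0558) and with quantile normalization. Fn1 fell in control cells (-0.40 ± 0.13, limma adjusted p = 0.0209), a call lost without day 5 shRNA CON replicate 2 or day 7 shRNA CON replicate 4 (adjusted p 0.0554 and 0.0756) and under 2 scalings. With shRNA RUS it was not called (-0.10 ± 0.13). Ogn was not called in either arm (0.04 ± 0.12 and 0.12 ± 0.12), although TPM as deposited and quantile normalization called it higher with shRNA RUS. Postn fell with shRNA RUS (-0.95 ± 0.31, limma adjusted p = 0.0134, and 0.0523 without day 5 shRNA RUS replicate 1). Of the 19 other meningeal markers tested, 4 rose and 11 fell with shRNA CON and 2 rose and 14 fell with shRNA RUS. Thbs2 fell 2.04 on the log2 scale with shRNA CON, while Prrx1 rose in both arms (0.80 and 1.28).

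The difference between the day 7 and day 5 knockdown effects was tested in 1 fit over all 16 libraries. It was called for 11 of 25 members, 6 upward and 5 downward, against 15.2% and 14.6% of 23789 genes. On TPM as deposited 7 were upward and 3 downward, while the share of upward calls over all genes moved from 51.1% to 73.5% and their median from 0.04 to 0.19. The effect moved upward for Pdgfrb (log2 0.98 ± 0.11, limma adjusted p = 2.33e-05), Ptgds (0.64 ± 0.12, limma adjusted p = 7.40e-04), Fbln1 (0.62 ± 0.13, limma adjusted p = 0.00245), Acta2 (0.51 ± 0.12, limma adjusted p = 0.00491) and Islr (0.34 ± 0.089, limma adjusted p = 0.0102). It moved downward for Ly6c1 (-1.91 ± 0.47, limma adjusted p = 0.00608), Mfsd2a (-0.91 ± 0.067, limma adjusted p = 6.75e-07) and Myl9 (-0.47 ± 0.10, limma adjusted p = 0.00322). For Ly6c1 the difference ranged from -2.19 to -0.95 over 24 alternatives. Foxc1 gave 0.03 ± 0.21, so its rises on the days were not shown to differ.

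The other 3 calls were weaker. For Tagln, whose fall was smaller on day 7 (0.44 ± 0.14, limma adjusted p = 0.0307), the call was lost without day 5 shRNA CON replicate 2, day 5 shRNA RUS replicate 2 or 3, day 7 shRNA CON replicate 2, 3 or 4, or day 7 shRNA RUS replicate 1 or 2 (adjusted p 0.0528 to 0.0645). For Kdr (-0.40 ± 0.13, limma adjusted p = 0.0302) it was lost without day 5 shRNA CON replicate 4, day 7 shRNA CON replicate 2 or day 7 shRNA RUS replicate 4 (adjusted p 0.0540 to 0.0611), and on TPM as deposited (-0.24, adjusted p = 0.249). For Slco1a4 (-0.36 ± 0.11, limma adjusted p = 0.0241) it was lost on TPM as deposited and with quantile normalization (adjusted p 0.272 and 0.0744). Rgs5 was not called (0.53 ± 0.20, limma adjusted p = 0.0551), but 5 of 25 alternatives called it, leaving out day 5 shRNA RUS replicate 4 or day 7 shRNA RUS replicate 2 among them (adjusted p 0.0141 and 0.0454). The microglial genes moved the same way as Ly6c1 and Mfsd2a, with 9 of 10 called downward. Of 11 other endothelial markers tested, 6 were called downward and 0 upward, with a median of -0.72 beside 0.04 for all genes. Of 7 oligodendrocyte-lineage genes 0 were called either way. These shared directions were not tested further.

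Ligands and coreceptors of these receptors were measured in the same cultures. Of 13 such genes all were tested: 1 rose and 2 fell with shRNA RUS on day 5, and 2 rose and 6 fell on day 7. In all, 23.1% of them were called on day 5 and 61.5% on day 7. Over all genes tested, 14.8% were called higher and 17.9% lower on day 5, and 23.4% and 25.8% on day 7. Vegfa, the main ligand of Kdr, fell on day 5 from 36.0 to 23.9 scaled TPM (log2 -0.59, limma adjusted p = 6.55e-04) and on day 7 from 25.7 to 22.5 (-0.18, limma adjusted p = 0.0199). Vegfb, a ligand of Flt1, rose on day 7 from 23.3 to 39.6 (0.77, limma adjusted p = 4.19e-04), and Vegfc, of the lymphatic VEGF branch, rose from 1.14 to 1.71 (0.55, limma adjusted p = 0.0148). The VEGF coreceptors Nrp1 (log2 -0.22, limma adjusted p = 0.00171) and Nrp2 (-0.17, limma adjusted p = 0.0162) fell on day 7. Pdgfb, the ligand of Pdgfrb, fell from 7.71 to 4.68 on day 5 (-0.71, limma adjusted p = 2.69e-04) and from 10.6 to 5.42 on day 7 (-0.95, limma adjusted p = 1.41e-05). Pdgfrb itself rose on day 7, and its day 5 call was lost under 10 of 17 alternatives. Pdgfd, a further ligand of Pdgfrb, rose from 6.96 to 13.0 on day 5 (0.90, limma adjusted p = 5.84e-05). On day 7 its groups overlapped and it was not called (0.28, limma adjusted p = 0.0600). Pgf (placental growth factor) and Vegfd were called on neither day. Of the angiopoietins, the ligands of Tek, Angpt1 was called on neither day, at 26.0 and 24.8 scaled TPM on day 5 and 17.3 and 17.5 on day 7. The less abundant Angpt2 (log2 -0.95, limma adjusted p = 0.0222) and Angpt4 (-1.80, limma adjusted p = 2.53e-04), named here after their values were seen, were not called on day 5 and fell on day 7.

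Summed over each list, the members gave a description with no test. The endothelial sum was 162 ± 4.17 (SD, n = 4) and 149 ± 6.52 scaled TPM on day 5 and 199 ± 1.33 and 134 ± 9.35 on day 7 with shRNA CON and shRNA RUS, made up mostly of Mfsd2a and Slco1a4. The mural sum was 912 ± 63.9 and 684 ± 45.6 on day 5 and 514 ± 27.3 and 466 ± 56.6 on day 7. The meningeal sum was 480 ± 20.4 and 504 ± 21.9 on day 5 and 369 ± 4.41 and 505 ± 12.1 on day 7. Only 1 or a few abundant genes set each sum, so it does not stand for the members that were low.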

How the data were processed

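PolyA RNA from 16 libraries (4 per group) was sequenced by the authors, who aligned reads with STAR to mm10 (GRCm38) and estimated expression with RSEM, as the study's methods and the submitters' processing notes name them. The authors deposited 1 table per day of TPM values, which are scaled to the same sum in each library and keep no depth, so the depth is unknown; 25615 to 29126 genes were above 0 per library. The deposited base mean, a signal made by the authors by averaging size-factor-normalized counts over the libraries of a day, is quoted as the authors' mean. Their DESeq columns (fold changes, standard errors, p-values) were not used.

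TPM were divided by median-ratio library factors over genes that reached 1 TPM in every library, and log2(scaled TPM + 0.1) was fitted with limma 3.58.1 (lmFit, eBayes with trend) in R 4.3.3. Genes whose mean reached 0.1 TPM were tested, with Benjamini-Hochberg adjustment over all of them and a threshold of 0.05. Knockdown was fitted within each day on 8 libraries, and the comparisons across days in 1 fit over 16 libraries, on lines with the same symbol in both tables (106 lines were left out). A count model could not be run on TPM. The scripts were tested on simulated data. Printed levels used the factors of all 16 libraries.

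Members whose mean reached 1 scaled TPM on either day are given per library, and the others by range and calls. Of other lists at most the 3 highest genes and 3 with the largest called knockdown change are named, and of ligands and coreceptors those of at least 1 TPM. Any further gene is marked where it is named after its values were seen. The members and lists were chosen with earlier results of these data known. Positions are from GENCODE on GRCm38. Alternatives comprised other pseudocounts, filters, scalings, a prior without trend, a replicate block and each library left out in turn.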

Additional observations from a re-analysis of the deposited data

Results flagged for a closer look

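In 8 of 100 groups of 4 libraries examined, for the 25 members tested, the highest or lowest library stood apart from the other three by a gap above Dixon's critical value for the group's range; chance alone gives about 1 in 20. Among the abundant members these were Slco1a4 in day 5 shRNA CON replicate 3 (39.6 scaled TPM, the lowest), Tagln in day 7 shRNA CON replicate 1 (235, the highest) and Fn1 in day 5 shRNA CON replicate 2 (84.5, the highest). Below 1 scaled TPM they were Vwf in day 5 shRNA CON replicate 2 (0.839), Abcb1a in day 7 shRNA RUS replicate 3 (0.373), Anpep in day 5 shRNA RUS replicate 3 (0.567), and Postn in day 5 shRNA RUS replicate 1 (0.663) and day 7 shRNA RUS replicate 4 (0.246), each the highest of its group.

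The knockdown effect differed between the days, by the interaction test in limma, for 11 of 25 members, 6 upward and 5 downward, against 15.2% and 14.6% of all genes tested. The difference of day 7 minus day 5 on the log2 scale was 0.98 for Pdgfrb, 0.64 for Ptgds, 0.62 for Fbln1, 0.51 for Acta2, 0.44 for Tagln and 0.34 for Islr. It was -1.91 for Ly6c1, -0.91 for Mfsd2a, -0.47 for Myl9, -0.40 for Kdr and -0.36 for Slco1a4. The calls of Tagln, Kdr and Slco1a4 were lost under 9, 5 and 2 of 25 alternatives.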

How the results depend on the processing

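Depth is unknown, and genes near 0 rest on few reads. Of 1750 fold changes of single members under other settings, 1621 kept their direction and side of the threshold, 90 lost a call, 18 gained one and 21 turned sign; unless stated, the cause was not tested. On TPM as deposited, members called with shRNA RUS between days were 8 higher and 5 lower (5 and 9 after scaling), and 3 were called lower in the interaction (5 after scaling). Summed levels on TPM as deposited were, for endothelial members, 157, 130, 215 and 147 (day 5 shRNA CON and shRNA RUS, day 7 shRNA CON and shRNA RUS), for mural members 596 in day 5 shRNA RUS and 555 in day 7 shRNA CON, and for meningeal members 439 in day 5 shRNA RUS and 399 and 551 in the day 7 groups.

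Fold changes near 0 turned sign. On day 5, Ly6c1 gave 0.05 with quantile normalization and -0.28 to 0.09 with 1 library left out, and Islr -0.03 on TPM as deposited and -0.05 with quantile normalization. Between days with shRNA CON, Kdr gave -0.05 with quantile normalization, Mfsd2a 0.14 on TPM as deposited, 0.13 with quantile normalization and -0.03 to 0.01 with 1 library left out, and Ogn -0.05 to 0.12 with 1 left out. Between days with shRNA RUS, Acta2 gave 0.10 on TPM as deposited and 0.22 with quantile normalization, and Fn1 0.22 on TPM as deposited and -0.24 to 0.01 with 1 left out. In the interaction, Foxc1 gave -0.06 with a pseudocount of 1 and -0.08 to 0.14 with 1 left out, and Ogn -0.01 to 0.16. The members called higher with shRNA RUS between days were 3 to 5 with 1 library left out, the 3 without day 7 shRNA RUS replicate 4.

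The labels number the replicates 1 to 4 in each group but tie them to no shared culture, and the same-numbered libraries of a day did not deviate together (correlations of -0.105 to 0.033, and up to 0.116 between different numbers). With the replicate number as a block, 5 members were called lower on day 5 in place of 8 and 3 higher in place of 4, while over all genes 2735 were lower in place of 4034 and 2231 higher in place of 3349; Acta2, Fn1, Pdgfrb and Vwf lost their calls. On day 7 the block gave 6 higher and 5 lower, and between days with shRNA CON 3 higher and 10 lower, as without it. Between days with shRNA RUS it gave 4 higher and 10 lower in place of 5 and 9, with Vwf losing and Ly6c1 gaining a call, and in the interaction 7 upward and 4 downward in place of 6 and 5, with Kdr losing and Rgs5 gaining a call.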
